A study of Mus musculus with 15 samples.

Results

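DNA replication machinery stands here for 42 mouse genes that load origins, unwind DNA, copy it, supply its precursors and repackage the copies. They were the rows of the deposited count table whose symbol was on a list of 42 names, all 42 were found, and all 42 passed the filter on low counts. The table holds 39331 genes, of which 16437 passed that filter and were tested.

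The tissue was left ventricle of C57BL/6 mice, all with an experimental myocardial infarction. Messenger RNA was captured with oligo-dT beads and sequenced in 15 libraries, which the labels place in 4 groups: adult hearts with transferred adult T cells (called adult recipients, n = 4, numbers 1 to 4), adult hearts without them (adult controls, n = 3, numbers 5 to 7), neonatal hearts with transferred adult T cells (neonatal recipients, n = 4, numbers 1, 2, 4 and 5) and neonatal hearts left untreated (neonatal controls, n = 4, numbers 6 to 9). The infarct is shared by all groups, so no library shows an uninjured heart. A time of 36 h after infarction is stated for neonatal hearts, while the time in adult hearts, ages in days, T cell doses and sequencing batches are not stated. Nothing says that libraries came from separate animals, so p-values measure the spread between these libraries, which may be technical.

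DNA replication begins when the origin recognition complex, Cdc6 and Cdt1 load the MCM helicase on origins in G1, a step that geminin blocks later in the cycle. In S phase the helicase is activated by Cdc45 and the GINS complex, primers are laid by polymerase alpha and primase, and the polymerases delta and epsilon copy the strands while held by the PCNA ring. Most of these genes are transcribed under E2F factors as cells enter S phase, and mouse cardiomyocytes are known to leave the cell cycle soon after birth. The series title asks about adult T cells in the regenerating neonatal heart. The comparisons of age and of T cells below describe the replication genes within that design. In ventricle RNA, fewer dividing cells and less RNA per dividing cell cannot be told apart.

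Total counts ran from 21871617 to 34302786 per library, and 3 counts equalled 0.0875 to 0.137 CPM (the count relative to the scaled library total), far below the lowest member. The age labels were set against transcripts known to fall steeply after birth in the mouse heart. H19, an imprinted fetal RNA, was at 712 to 918 CPM in the libraries labelled adult, against 1680 to 1900 CPM in neonatal libraries, and Igf2, a fetal growth factor, was at 710 to 917 CPM in adult libraries, against 1040 to 1320 CPM in neonatal ones. Both were thus lower in the libraries labelled adult but abundant there. The label is kept below as given, and "adult" means labelled adult throughout. Neonatal control 8 stood apart from the other neonatal libraries, with a first principal component score of 53 where the others lay between -21.1 and 9.6.

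Every member was expressed in every group. Per kilobase of the longest annotated coding transcript, the lowest mean level was that of Orc1, the ATPase subunit of the origin recognition complex, at 0.697, 0.649, 1 and 1.05 CPM per kilobase in adult recipients, adult controls, neonatal recipients and neonatal controls. The highest was that of Pcna, the sliding clamp, at 50.3, 50, 55 and 54.7 CPM per kilobase. In the count table's coordinates (GRCm38.p6), Mcm4 spans chr16:15623897-15637400 (minus strand), Mcm2 chr6:88883474-88898780 (minus), Tyms chr5:30038546-30073645 (minus), Rrm1 chr7:102441695-102469771 (plus) and Rrm2 chr12:24708254-24714146 (plus), each a protein-coding gene with introns. The median member lay at 10.7, 10.1, 11.6 and 12.1 CPM per kilobase in the same order of groups.

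The promoters of these genes are printed for 4 members because they differ both in E2F-type sequence and in how the gene behaved between ages. Of the 42 members, 34 had a window in the RefSeq promoter table (250 bases before to 50 after an annotated start, GRCm38.p6). Gins1, Gins2, Gins4, Gmnn, Mcm4, Pole, Prim2 and Rfc2 had none. The windows were searched on both strands for the E2F-type octamers TTTCCCGC, TTTGGCGC, TTTCGCGC and TTTGCCGC, which overlap one another where a site is palindromic. A match stood in 14 of 34 members (41.2%) and in 704 of 27025 genes with a window (2.6%), and the CCAAT box in 23 of 34 members (67.6%) against 41.1% of genes. Each line below gives the 200 bases before the start, 5′ to 3′ on the gene's strand, with E2F-type matches in capitals.
Mcm6: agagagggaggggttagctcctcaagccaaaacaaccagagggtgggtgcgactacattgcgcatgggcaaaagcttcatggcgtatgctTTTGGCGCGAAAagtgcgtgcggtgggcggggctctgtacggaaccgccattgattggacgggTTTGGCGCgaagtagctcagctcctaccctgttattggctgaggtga
Mcm5: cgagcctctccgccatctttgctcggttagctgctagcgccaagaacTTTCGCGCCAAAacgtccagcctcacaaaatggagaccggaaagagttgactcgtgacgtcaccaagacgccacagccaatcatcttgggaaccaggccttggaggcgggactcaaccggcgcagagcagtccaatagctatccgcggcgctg
Tyms: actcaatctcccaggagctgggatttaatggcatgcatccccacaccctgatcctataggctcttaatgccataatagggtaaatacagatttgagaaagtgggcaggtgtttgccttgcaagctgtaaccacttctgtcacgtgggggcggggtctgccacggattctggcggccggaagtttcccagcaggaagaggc
Rrm2: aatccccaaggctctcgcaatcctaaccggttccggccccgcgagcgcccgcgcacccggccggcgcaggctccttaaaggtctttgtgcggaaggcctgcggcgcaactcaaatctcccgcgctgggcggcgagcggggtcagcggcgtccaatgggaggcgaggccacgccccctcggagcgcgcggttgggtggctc

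These lie at chr1:128359706-128359905 (minus strand) for Mcm6, chr8:75109309-75109508 (plus strand) for Mcm5, chr5:30073626-30073825 (minus strand) for Tyms and chr12:24708054-24708253 (plus strand) for Rrm2. Mcm6 has 3 matches, 2 of them overlapping on opposite strands at -110 and -106 and the third at -47, counted from the first base of the match to the start. Mcm5 has the same kind of overlapping pair at -153 and -149. Tyms and Rrm2 have no match to these letters in their windows.

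**Figure D1:**
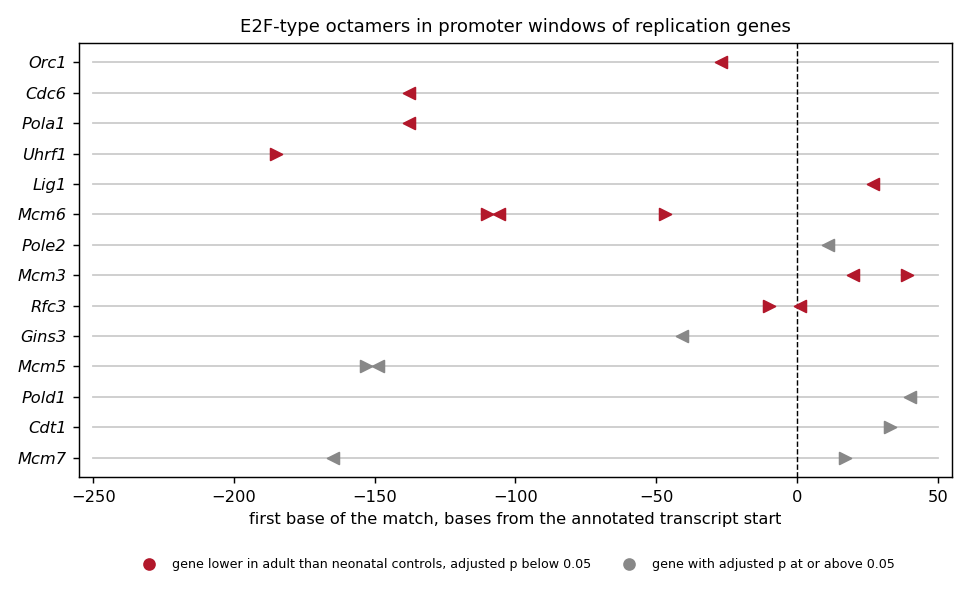
Positions of E2F-type octamers in the RefSeq promoter windows of the 14 members that hold one, in bases from the annotated start, with arrowheads giving the strand of the match. Genes are ordered from the most negative (top) to the least negative log2 fold change of adult against neonatal controls, and 8 of the 14 (red) were lower in adult controls at an adjusted p below 0.05.

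Between adult and neonatal controls, 17 of the 42 replication genes were lower in adult controls and none was higher (edgeR quasi-likelihood test, Benjamini-Hochberg adjustment over all 16437 genes, threshold 0.05). Over all genes tested, 30.9% were called, 15.4% as lower and 15.6% as higher. The fold change was negative in 38 of 42 members (90.5%) and in 52.1% of all genes, with a median log2 fold change of -0.22 in the members and -0.02 over all genes. The changes were small, from -0.72 for Mcm10 to 0.34 for Rrm2, with a median standard error of 0.11. The libraries of the groups did not overlap for 19 members, all lower in adult controls, where 34.6% of all genes did not overlap and 16.9% did so as lower. Between adult and neonatal recipients, 13 of 42 were lower in adult recipients and none was higher, against 26.9% of all genes called lower, 23.8% called higher and 50.7% called in all. The median was -0.16 in the members and -0.03 over all genes, and 7 members had groups that did not overlap, against 45.4% of all genes. The share of members lower in recipients, 31%, was thus close to the share of all genes.

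Both age comparisons called 12 members, namely Orc1, Mcm3, Mcm4, Mcm10, Pola1, Prim2, Rfc1, Lig1, Tyms, Rrm1, Chaf1b and Uhrf1. With 30.9% of all genes called in controls and 50.7% in recipients, many genes would be called in both. The share of all genes called in both was not computed, so this count is not a trait of the members. Orc6, Cdc6, Mcm6, Rfc3 and Tk1 passed in controls alone and Orc2 in recipients alone, while 24 members passed in neither. The age change in recipients minus that in controls is the same contrast as the difference in T cell effect given below, in which no member passed, so a gene called in 1 comparison alone is not shown to differ between them. Leaving out adult control 7 gave 11 lower and 1 higher in controls, and leaving out adult recipient 1 or neonatal recipient 1 gave 9 lower in recipients. Just inside the threshold in controls lay Orc1 (adjusted p = 0.0229) and Rfc1 (0.0377), and just outside it Chaf1a (0.0544) and Gins1 (0.0608).

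**Figure D2:**
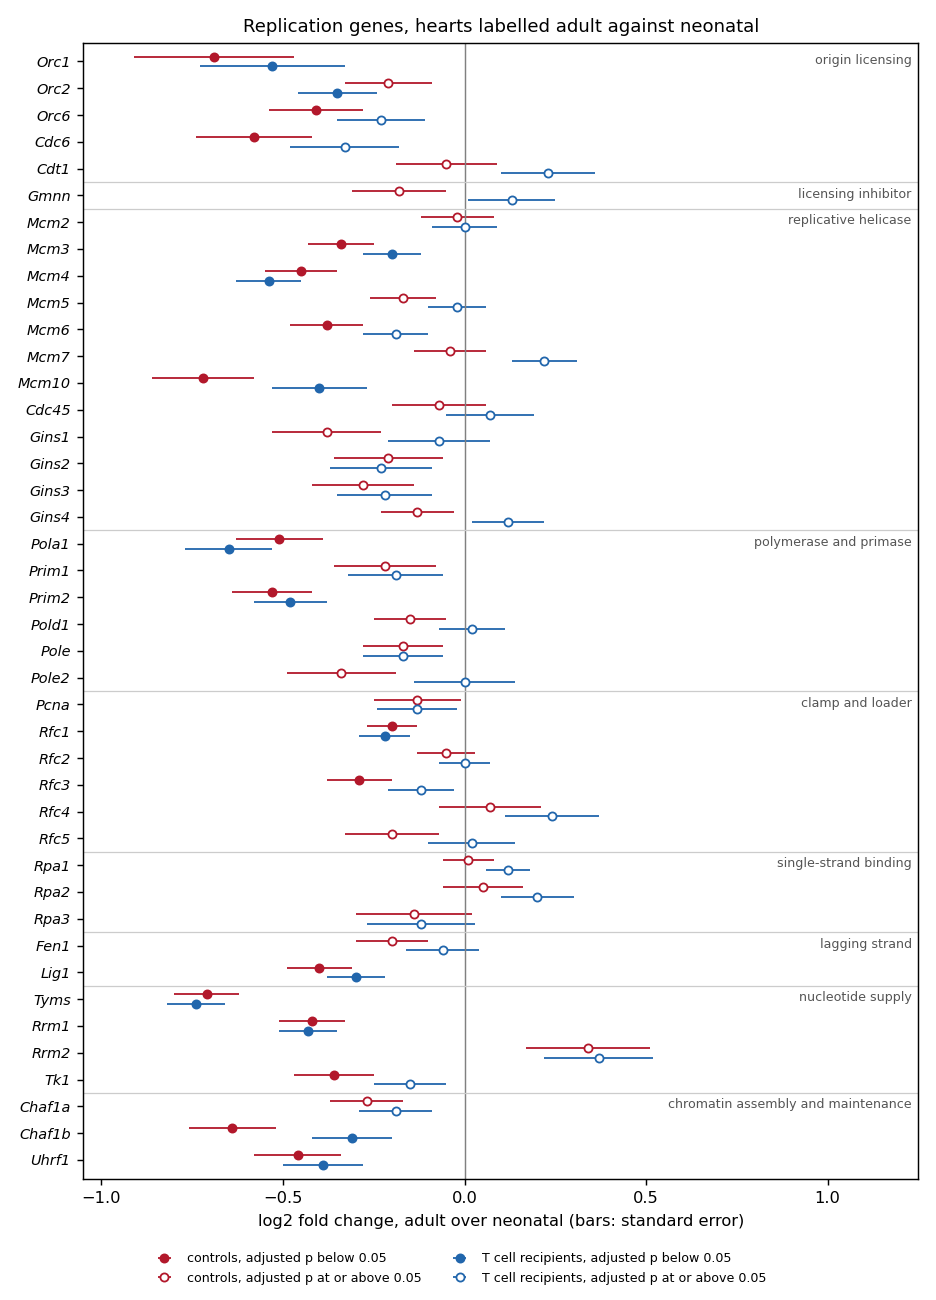
Log2 fold changes of the 42 members, grouped by role, in adult over neonatal controls (red) and adult over neonatal recipients (blue), with standard errors as bars. Filled points have an adjusted p below 0.05 and all of them lie left of 0, from -0.20 to -0.74.

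Of the 5 licensing genes, 3 were lower in adult than neonatal controls. Cdc6, the ATPase that helps load the helicase, was at 6.64, 6.94 and 5.68 CPM in adult controls, against 9.83, 8.85, 11.3 and 8.4 CPM in neonatal controls. Every adult control lay below every neonatal control, and the log2 fold change was -0.58 ± 0.16 (SE, edgeR adjusted p = 0.0115). Adult recipients had 5.83, 7.44, 7.73 and 6.92 CPM, against 8.44, 8.37, 11.6 and 6.78 CPM in neonatal recipients. The recipient groups overlapped through neonatal recipient 5, and -0.33 ± 0.15 did not pass (adjusted p = 0.074). Without adult control 7 the call in controls was lost (adjusted p = 0.0571).

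Orc6, the smallest subunit of the origin recognition complex, had 17.5, 18.4 and 14.3 CPM in adult controls, against 22.1, 21.7, 25 and 20.2 CPM in neonatal controls. The groups did not overlap, and the log2 fold change was -0.41 ± 0.13 (adjusted p = 0.0189, or 0.106 without adult control 7). In recipients it was -0.23 ± 0.12 (adjusted p = 0.102). Orc1 had the lowest counts of all members and the largest standard errors, with 1.76, 2.2 and 1.91 CPM in adult controls, against 4.12, 2.88, 2.77 and 2.85 CPM in neonatal controls (-0.69 ± 0.22). It was lower in both age comparisons, by -0.53 ± 0.20 in recipients with an adjusted p of 0.0331, and lost its call without any of 3 libraries in controls and any of 5 in recipients. Its span overlaps Prpf38a on the opposite strand, at a mean of 28.9 CPM, and the strand setting of the counts is not given in the sources used here.

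Orc2, another subunit of the complex, passed in recipients alone, at -0.35 ± 0.11 (adjusted p = 0.015), against -0.21 ± 0.12 in controls (adjusted p = 0.197). Its call was lost without adult recipient 1 (adjusted p = 0.0613) or neonatal recipient 1 (adjusted p = 0.0641). Cdt1, the loading partner of Cdc6, showed no call, with log2 fold changes of -0.05 ± 0.14 in controls and 0.23 ± 0.13 in recipients. Gmnn encodes geminin, the inhibitor of Cdt1. It had 29.6, 31.8 and 24.3 CPM in adult controls, against 30.2, 29.5, 40.8 and 28.9 CPM in neonatal controls. The groups overlapped, neonatal control 8 was well above the rest, and -0.18 ± 0.13 did not pass (adjusted p = 0.302).

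Of the 12 genes of the helicase and its activators, 4 were lower in adult controls, and all 12 had negative fold changes there, from -0.72 to -0.02, with no gap between called and uncalled genes. Mcm10, which tethers polymerase alpha to the helicase, was at 7.8, 5.71 and 5.23 CPM in adult controls, against 10.3, 9.99, 11.6 and 9.15 CPM in neonatal controls. It was lower without overlap in controls (-0.72 ± 0.14, adjusted p = 0.000911) and also in recipients (-0.40 ± 0.13, adjusted p = 0.013), with 7.42, 6.5, 6.8 and 8.01 CPM in adult recipients, against 9.34, 8.76, 10.6 and 9.39 CPM in neonatal recipients.

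MCM2 to MCM7 form a ring with 1 copy of each subunit, and their transcripts are given one by one. Mcm4 was at 32.4, 34.6 and 27.1 CPM in adult controls, against 44.6, 39.4, 48.2 and 39.7 CPM in neonatal controls. Adult recipients had 29.7, 32.9, 30 and 28.6 CPM, against 45.4, 39.3, 49.6 and 41.5 CPM in neonatal recipients. All 7 adult libraries lay below all 8 neonatal ones, and the log2 fold changes were -0.45 ± 0.10 in controls (adjusted p = 0.0027) and -0.54 ± 0.09 in recipients (adjusted p = 0.000123).

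Mcm2 did not pass, with 70, 75.2 and 60.8 CPM in adult controls, against 72.9, 61.5, 79.7 and 63.9 CPM in neonatal controls. Its adult recipients had 67.3, 75.4, 63.6 and 64 CPM, against 64.6, 62.3, 72.7 and 70.7 CPM in neonatal recipients. The ranges overlapped nearly whole at both comparisons, and the 95% intervals of the log2 fold change were -0.22 to 0.19 in controls and -0.19 to 0.19 in recipients. Mcm3 was lower in both comparisons (-0.34 ± 0.09, adjusted p = 0.00706, and -0.20 ± 0.08, adjusted p = 0.0427), with the call in recipients lost without any of 8 libraries. Mcm6 passed in controls (-0.38 ± 0.10, adjusted p = 0.00555) and missed in recipients (-0.19 ± 0.09, adjusted p = 0.0802). Mcm5 passed in neither, at -0.17 ± 0.09 and -0.02 ± 0.08.

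Mcm7 showed -0.04 ± 0.10 in controls and 0.22 ± 0.09 in recipients (adjusted p = 0.0584). Scaling by DESeq2 size factors brought the recipients' adjusted p to 0.0395 at 0.24, above neonatal recipients. Its span overlaps Ap4m1 on the opposite strand, at a mean of 19.5 CPM. Opposite-strand genes also overlap Rfc4 (Eif4a2, mean 143 CPM), Cdc45 (Ufd1, 50.8), Fen1 (Tmem258, 49.7) and Gins2 (Gse1, 42.9). The same holds for Tk1 (Afmid, 26.7), Rpa1 (Smyd4, 11.5), Pole2 (Klhdc1, 9.97) and Lig1 (Zswim9, 9.18). The part of such overlaps in the counts was not tested.

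The unequal change is visible as a ratio within each library, which needs no scaling between libraries. Per kilobase of transcript, the level of Mcm4 divided by that of Mcm2 was 0.414, 0.409, 0.443 and 0.419 in adult recipients and 0.435, 0.432 and 0.419 in adult controls. In neonatal recipients it was 0.661, 0.592, 0.641 and 0.552, and in neonatal controls 0.575, 0.602, 0.568 and 0.584. The 7 adult libraries all lay below the 8 neonatal ones, with means of 0.421, 0.429, 0.611 and 0.582 in the same order of groups. Neonatal control 8, which stood apart in overall composition, had 0.568 and lay among its group. This pair was chosen after its values were seen, and no test is given for it.

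**Figure D3:**
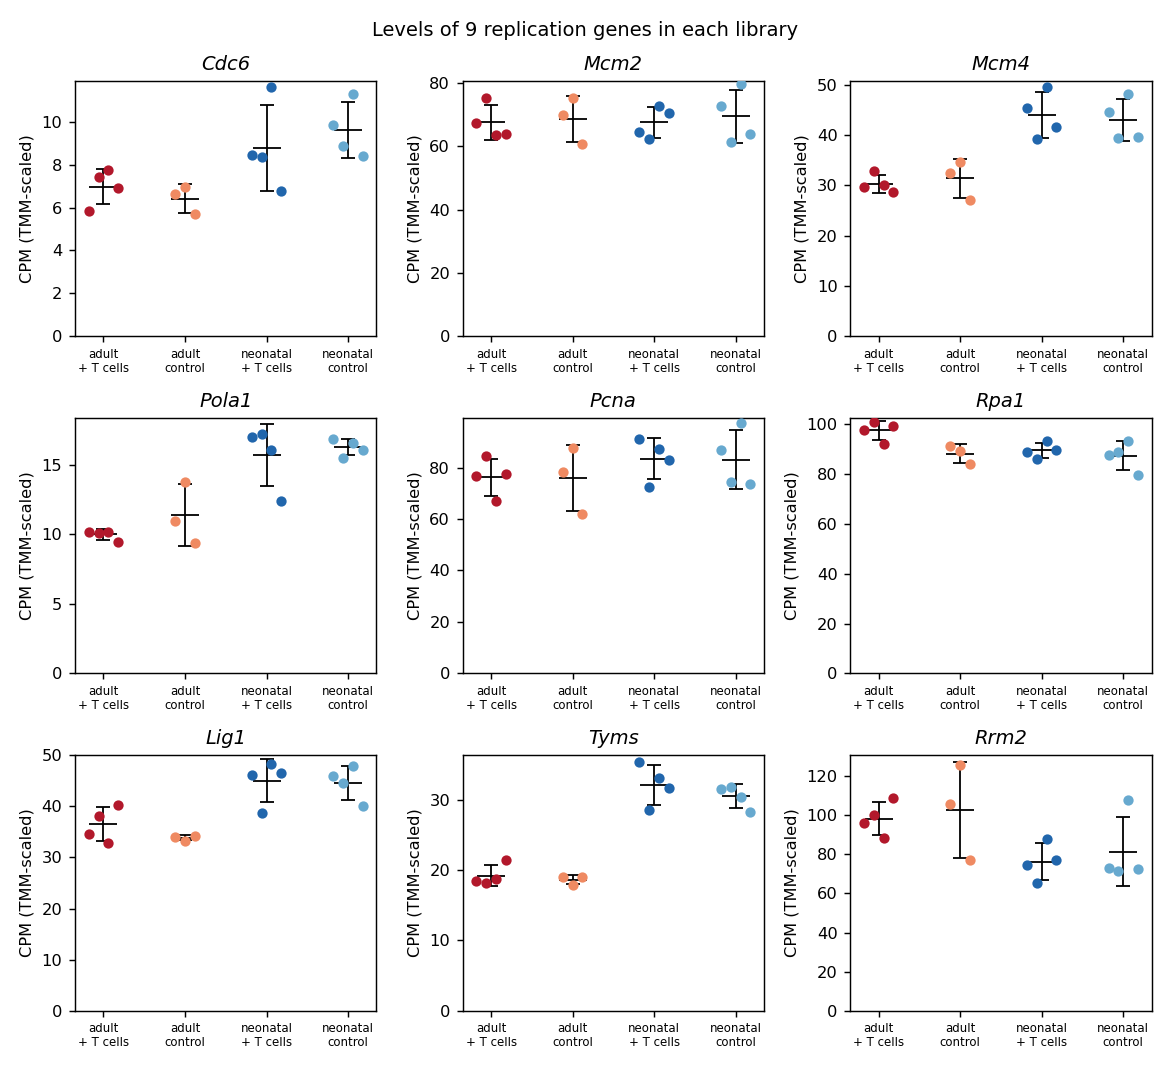
CPM of 9 members in each of the 15 libraries (points), with group mean and SD (bars), from adult recipients on the left to neonatal controls on the right. Mcm4, Lig1 and Tyms lie lower in the adult groups, Mcm2, Pcna and Rpa1 overlap between ages in controls, and Rrm2 has its 2 highest values, 126 and 109 CPM, in adult libraries.

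The remaining helicase partners gave no call. Cdc45, which joins the ring at firing, had log2 fold changes of -0.07 ± 0.13 in controls and 0.07 ± 0.12 in recipients. The 4 GINS genes ran from -0.38 (Gins1) to -0.13 (Gins4) in controls and from -0.23 (Gins2) to 0.12 (Gins4) in recipients. Among the 12 genes of this role the median was -0.24 in controls, where 4 were called lower, and -0.13 in recipients, where 3 were.

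Of the 6 polymerase and primase genes, Prim2 and Pola1 were lower in adult hearts in both comparisons and the other four passed in neither. Prim2, the large primase subunit, was at 8.6, 8.12 and 8.08 CPM in adult controls, against 13.8, 12.2, 12.1 and 9.82 CPM in neonatal controls. In recipients it was at 9.2, 9.18, 8.66 and 9.1 CPM in adults, against 14.3, 11.7, 12 and 12.5 CPM in neonates. Neither comparison had overlapping groups, and the log2 fold changes were -0.53 ± 0.11 in controls (adjusted p = 0.00175) and -0.48 ± 0.10 in recipients (adjusted p = 0.0008).

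Pola1, the catalytic subunit of polymerase alpha, had 11, 13.8 and 9.37 CPM in adult controls, against 16.9, 15.5, 16.6 and 16.1 CPM in neonatal controls. Adult recipients had 10.2, 10.1, 10.2 and 9.43 CPM, against 17, 17.2, 16.1 and 12.4 CPM in neonatal recipients. Within each comparison the adult group lay wholly below the neonatal one, by -0.51 ± 0.12 in controls (adjusted p = 0.00471) and -0.65 ± 0.12 in recipients (adjusted p = 0.00016). Across comparisons, adult control 6 (13.8 CPM) lay above neonatal recipient 5 (12.4 CPM). Prim1, the catalytic primase subunit, missed the threshold at -0.22 ± 0.14 in controls and -0.19 ± 0.13 in recipients. Pola2, the accessory subunit of polymerase alpha and no member, was at 0.02 ± 0.08 in controls (adjusted p = 0.901) and was higher in adult recipients at 0.24 ± 0.07 (adjusted p = 0.0111). It is named after its values were seen. The leading and lagging strand polymerases gave no call either. In controls Pold1, Pole and Pole2 had log2 fold changes of -0.15, -0.17 and -0.34, and in recipients 0.02, -0.17 and 0.00.

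The clamp itself did not pass, and 2 of the 5 loader subunits did. Pcna had 78.4, 87.4 and 62 CPM in adult controls, against 86.9, 74.2, 97.4 and 73.7 CPM in neonatal controls, with log2 fold changes of -0.13 ± 0.12 in controls and -0.13 ± 0.11 in recipients. Its groups overlapped, and a change between -0.38 and 0.12 lies within the 95% interval in controls.

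Rfc1, the large subunit that opens the clamp, had 42.1, 43 and 42.2 CPM in adult controls, against 45.9, 48.8, 51.6 and 48.7 CPM in neonatal controls. The difference of -0.20 ± 0.07 (adjusted p = 0.0377) was lost without any of 6 libraries, and in recipients it was -0.22 ± 0.07 (adjusted p = 0.00879). Rfc3, a small loader subunit, had 13.8, 13.6 and 13.5 CPM in adult controls, against 17.4, 16.4, 18.1 and 14.9 CPM in neonatal controls (-0.29 ± 0.09, adjusted p = 0.022, lost without any of 4 libraries). Both genes had groups that did not overlap in controls. Rfc3 had -0.12 ± 0.09 in recipients (adjusted p = 0.263), and Rfc2, Rfc4 and Rfc5 ran from -0.20 to 0.07 in controls and from 0.00 to 0.24 in recipients without a call.

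Replication protein A, the trimer that coats single-stranded DNA, showed no call in any subunit. Rpa1 was at 91.2, 89.3 and 84.1 CPM in adult controls, against 87.7, 88.8, 93.4 and 79.7 CPM in neonatal controls, and the 95% interval of its log2 fold change was -0.13 to 0.15. Rpa2 had 0.05 ± 0.11 in controls and 0.20 ± 0.10 in recipients (adjusted p = 0.115), and Rpa3 -0.14 ± 0.16 and -0.12 ± 0.15. Rpa1 and Rpa2 were among the 4 members with a positive value in controls, beside Rfc4 and Rrm2.

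On the lagging strand, Lig1, the ligase that seals Okazaki fragments, was at 34, 33.2 and 34.3 CPM in adult controls, against 46, 44.5, 47.9 and 40 CPM in neonatal controls. Adult recipients had 34.6, 38.1, 32.9 and 40.2 CPM, against 46.1, 38.8, 48.4 and 46.6 CPM in neonatal recipients. Groups did not overlap in controls (-0.40 ± 0.09, adjusted p = 0.0028), and in recipients 1 adult library lay above the lowest neonatal one (-0.30 ± 0.08, adjusted p = 0.00536). Fen1, the flap endonuclease that acts before the ligase, had -0.20 ± 0.10 in controls (adjusted p = 0.151) and -0.06 ± 0.10 in recipients.

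Nucleotide supply held both the smallest p-value of the 42 genes and the largest positive value. Tyms, thymidylate synthase, was at 19, 17.9 and 19 CPM in adult controls, against 31.5, 31.8, 30.4 and 28.2 CPM in neonatal controls. Adult recipients had 18.4, 18.1, 18.7 and 21.4 CPM, against 35.4, 28.5, 33 and 31.6 CPM in neonatal recipients. The ages were wholly apart, and the log2 fold changes were -0.71 ± 0.09 in controls (adjusted p = 1.47e-05) and -0.74 ± 0.08 in recipients (adjusted p = 1.13e-06). The promoter of this gene, printed above, holds none of the E2F-type octamers searched.

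Ribonucleotide reductase, which makes deoxyribonucleotides, is built from a large subunit (Rrm1) and a small one (Rrm2), and the transcripts differed in sign. Rrm1 was at 88.9, 95.2 and 73.1 CPM in adult controls, against 116, 110, 129 and 103 CPM in neonatal controls (-0.42 ± 0.09, adjusted p = 0.0019). It was at 86, 89.4, 80.3 and 86.6 CPM in adult recipients, against 120, 109, 117 and 115 CPM in neonatal recipients (-0.43 ± 0.08, adjusted p = 0.000278). Every adult library lay below every neonatal library.

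Rrm2 was at 106, 126 and 77.3 CPM in adult controls, against 73.1, 71.5, 108 and 72.7 CPM in neonatal controls (0.34 ± 0.17, adjusted p = 0.13). It was at 96.1, 100, 88.4 and 109 CPM in adult recipients, against 74.8, 65.2, 88 and 77.1 CPM in neonatal recipients (0.37 ± 0.15, adjusted p = 0.0591). The control groups overlapped through neonatal control 8 alone, and the recipient groups did not overlap. The control value ran from 0.17 without adult control 6 (adjusted p = 0.49) to 0.51 without neonatal control 8 (adjusted p = 0.00698) and 0.52 without adult control 7 (adjusted p = 0.024). Rrm2 was singled out after its values were seen.

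Per kilobase, the level of Rrm1 divided by that of Rrm2 was 0.491, 0.49, 0.498 and 0.436 in adult recipients and 0.46, 0.413 and 0.519 in adult controls. It was 0.878, 0.917, 0.733 and 0.82 in neonatal recipients and 0.868, 0.844, 0.655 and 0.776 in neonatal controls. The adult libraries, at most 0.519, lay wholly below the neonatal ones, at least 0.655, and neonatal control 8 was the lowest neonatal library. This pair too was chosen after its values were seen, and no test is given for it. Mcm4 divided by Mcm7 also separated the ages, with means of 0.37, 0.423, 0.623 and 0.568 in the same order of groups. Prim2 divided by Prim1 overlapped between ages, with means of 0.439, 0.367, 0.535 and 0.458. That ratio was 0.509 in adult recipient 1 and 0.346 in neonatal control 8. Tk1, the salvage thymidine kinase, had -0.36 ± 0.11 in controls (adjusted p = 0.02, lost without any of 3 libraries) and -0.15 ± 0.10 in recipients (adjusted p = 0.242).

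Of the 3 genes of chromatin assembly and maintenance, 2 passed in both comparisons. Chaf1b, a subunit of the histone chaperone CAF-1, was at 13.1, 14.2 and 12.3 CPM in adult controls, against 21.2, 19.9, 24.2 and 17.1 CPM in neonatal controls. The groups did not overlap (-0.64 ± 0.12, adjusted p = 0.000861), while in recipients the value was -0.31 ± 0.11 (adjusted p = 0.0318), lost without any of 5 libraries.

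Uhrf1, which brings the maintenance methyltransferase to newly copied DNA, had 40.5, 43.8 and 34.7 CPM in adult controls, against 49.9, 54.8, 64.4 and 49.2 CPM in neonatal controls. It was lower in controls without overlap (-0.46 ± 0.12, adjusted p = 0.00584) and in recipients with overlap (-0.39 ± 0.11, adjusted p = 0.005). Chaf1a, the large CAF-1 subunit, had -0.27 ± 0.10 in controls (adjusted p = 0.0544) and -0.19 ± 0.10 in recipients (adjusted p = 0.101).

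Members with and without an E2F-type octamer in their window did not part cleanly by age. Of the 14 with a match, 8 were lower in adult controls (median log2 fold change -0.34), and of the 20 with a window and no match 7 were (-0.20). In recipients the counts were 5 of 14 (-0.20) and 6 of 20 (-0.14). Mcm6 and Mcm5, both with an overlapping pair of matches, had -0.38 and -0.17 in controls, while Tyms and Rrm2, with none, had -0.71 and 0.34.

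Other genes of the pathway were followed from lists that exclude the members. Of 13 further origin and firing genes, 8 were lower in adult controls and none higher (median -0.38), among them Orc5 (-0.38 ± 0.08, adjusted p = 0.00152) and Dbf4, the activator of the Cdc7 kinase (-0.56 ± 0.13, adjusted p = 0.00347). Of 20 further fork and polymerase genes, 4 were lower and none higher (median -0.17), among them Clspn, the fork adaptor claspin (-0.62 ± 0.10, adjusted p = 0.000143), and Top2a, a topoisomerase (-0.59 ± 0.11, adjusted p = 0.000605). Of 8 further genes that copy chromatin, 4 were lower, among them Dnmt1, the maintenance methyltransferase (-0.43 ± 0.08, adjusted p = 0.000519). Of 12 further nucleotide genes, 2 were lower, with Dctd, the deoxycytidylate deaminase, at -0.59 ± 0.12 (adjusted p = 0.00145). Over all genes tested 15.4% were lower, so the shares of nucleotide genes (16.7%) and of fork and polymerase genes (20%) were close to it.

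Among 24 regulators of entry into S phase, 5 were lower (20.8%, against 15.4% of all genes) and 2 higher in adult controls. Cdkn1a, the inhibitor p21, was higher at 0.57 ± 0.10 (adjusted p = 0.000469), as was E2f6, a repressor of E2F sites, at 0.25 ± 0.08 (adjusted p = 0.0277), and Skp2, a ligase subunit that targets cell cycle inhibitors, was lower at -0.58 ± 0.14 (adjusted p = 0.00424). E2f1 was not called in controls, with means of 38.1 CPM in adults, against 29.2 CPM in neonates. In recipients its means were 36 CPM in adults, against 28.2 CPM in neonates. It is named after its values were seen. Of the 24 regulators, 18 had a negative and 6 a positive fold change in controls. Of 22 mitosis genes, 16 were lower and none higher, with a median of -0.45, against -0.22 in the 42 replication genes. In recipients, where 26.9% of all genes were lower and 23.8% higher, some lists held calls in both directions and others only lower calls. Lower and higher calls numbered 11 and 0 of the 13 origin and firing genes, 7 and 4 of the 20 fork and polymerase genes, and 3 and 1 of the 8 genes that copy chromatin. They numbered 4 and 0 of the 12 nucleotide genes, 12 and 2 of the 24 regulators of S phase entry, and 18 and 0 of the 22 mitosis genes.

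Markers of several cell types are given beside these results, with none at 0 in any group. Summed over 6 macrophage markers, libraries held 75 to 106 CPM in adult recipients, against 290 to 401 in neonatal recipients, and 86.1 to 108 in adult controls, against 110 to 363 in neonatal controls. Macrophage markers were lower in adult hearts in both comparisons (6 of 6 in recipients and 4 of 6 in controls). Summed over 6 endothelial markers, libraries held 1200 to 1380 CPM in adult recipients, against 951 to 1090 in neonatal recipients, and 1210 to 1330 in adult controls, against 1030 to 1050 in neonatal controls, and 5 of the 6 were higher in adult hearts in each comparison.

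Summed over 8 cardiomyocyte markers, libraries held 44400 to 46900 CPM in adult recipients, against 29900 to 38500 in neonatal recipients, where 7 of 8 were higher in adults. In controls the sums overlapped, at 36500 to 40700 CPM in adults, against 37100 to 37900 in neonates, with 3 of 8 higher. The 5 neutrophil markers summed to 8.36 to 19.1 CPM in adult recipients, against 31 to 52.9 in neonatal recipients (4 of 5 lower), and to 12.7 to 28.2 CPM in adult controls, against 20.5 to 58 in neonatal controls (0 called by edgeR, with 1 at an unadjusted p below 0.05). All 5 mural markers passed in each comparison, 3 higher and 2 lower in adults. Of the 6 fibroblast markers, 1 was higher and 1 lower in each comparison. The 6 erythroid markers summed to 2070 to 2800 CPM in adult recipients, against 790 to 1300 in neonatal recipients. In controls the sums were 1590 to 1760 CPM in adults, against 547 to 1530 in neonates. Of the 5 that passed the filter, 3 were higher in adult recipients and 1 was lower in adult controls. Of 5 T cell markers that passed it, 2 were higher in adult recipients and 0 were called in controls. B cell and epicardial markers are not given here. The part of cell composition in the age differences was not tested.

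Adult T cells went with no called change in any of the 42 genes in adult hearts. In adult recipients against adult controls 0 of 42 passed, while 8.55% of all genes did (5.03% lower and 3.53% higher). That share rests on the test and on single libraries: DESeq2 called 2324 genes in place of 1406, and 0 passed with a transcript length trend removed or without adult recipient 4, adult control 5 or adult control 6. The DESeq2 and limma voom tests also called 0 members, and 2 members had an unadjusted p below 0.05. The fold change was positive in 28 of 42 members (66.7%, against 49.7% of all genes), with a median of 0.09 and a range from -0.22 (Orc2) to 0.25 (Gins4). Without adult control 7, 23 were positive with a median of 0.03, without adult recipient 2 or 4 the median was 0.06, and without adult control 6, 36 were positive with a median of 0.12. Over the 42 genes, the 95% intervals reached from -0.47 to 0.58 at their widest. Groups did not overlap for 5 members (Mcm3, Gins4, Prim2, Rfc3 and Rpa1), all higher in adult recipients, where 25.1% of all genes did not overlap and 13.1% did so in that direction. Summed over 7 T cell markers, libraries held 4.05 to 6.62 CPM in adult recipients, against 2.56 to 3.53 CPM in adult controls, with none of the 7 at 0 in either group, and their part in these values was not tested.

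Gins4, a GINS subunit with the smallest p of the members, was at 22.5, 23.9, 27.4 and 22.9 CPM in adult recipients, against 22, 21.6 and 17.5 CPM in adult controls. All recipients lay above all controls, by a log2 fold change of 0.25 ± 0.11 with an adjusted p of 0.135. Rpa1 had 97.7, 101, 92.1 and 99.1 CPM in adult recipients, against 91.2, 89.3 and 84.1 CPM in adult controls (0.14 ± 0.07, adjusted p = 0.172). Mcm3 had 49.3, 50.3, 46.6 and 51.5 CPM in adult recipients, against 43.6, 44.6 and 43.5 CPM in adult controls (0.17 ± 0.09, adjusted p = 0.217). These genes were chosen by their p-values in this comparison.

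In the neonatal heart, the setting named in the series title, 0 of 42 members passed in neonatal recipients against neonatal controls, and 0% of all genes did. By edgeR 513 of 16437 genes had an unadjusted p below 0.05, of which 0 were members, and DESeq2 and limma voom called 0 genes too. The median log2 fold change of the members was -0.08 and the range -0.24 to 0.08, with 31 of 42 negative (73.8%, against 50.1% of all genes). No member had groups that did not overlap, against 1.36% of all genes. The 95% intervals reached from -0.51 to 0.35 at their widest, so changes beyond those bounds lie outside the interval of each of the 42 genes. The summed T cell markers were at 2.69 to 4.14 CPM in neonatal recipients, against 2.47 to 3.82 CPM in neonatal controls.

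Pole2, a subunit of polymerase epsilon, had the smallest p in neonates. It was at 8.26, 7.4, 7.3 and 8.08 CPM in neonatal recipients, against 9.65, 7.54, 10.2 and 9.22 CPM in neonatal controls. The groups overlapped through neonatal control 7, and -0.24 ± 0.13 had an adjusted p of 0.999. The direction of the members rested on single libraries: without neonatal control 8, 20 of 42 were positive with a median of -0.01, and without neonatal recipient 2, 16 were, with a median of -0.02. Without neonatal control 9 only 2 of the 42 were positive.

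**Figure D4:**
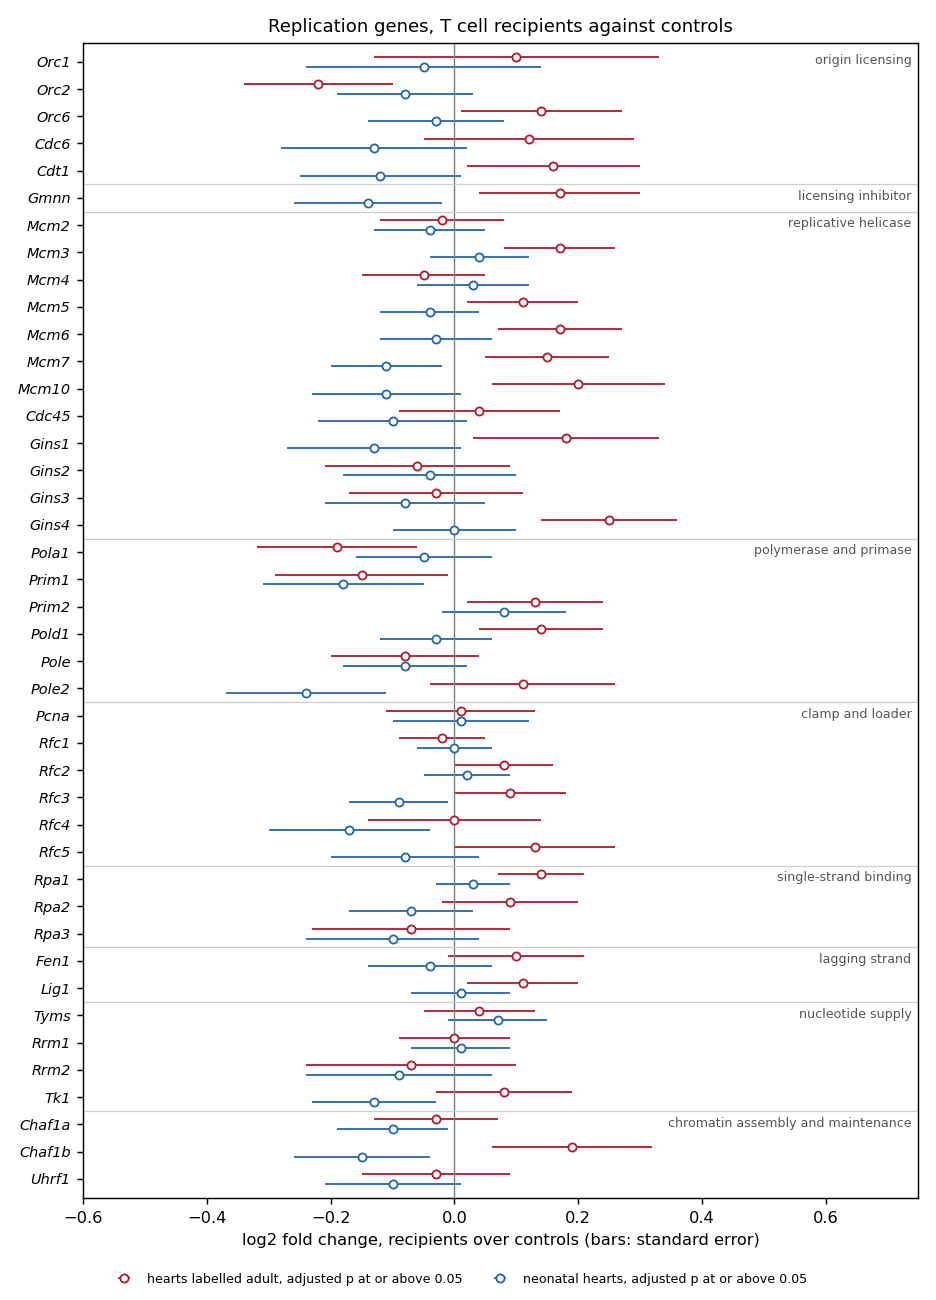
Log2 fold changes of the 42 members in T cell recipients over controls, in adult hearts (red) and neonatal hearts (blue), with standard errors as bars. All points are open because no adjusted p fell below 0.05, and they lie between -0.24 and 0.25.

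The T cell effect was compared directly between ages as a difference of both fold changes, adult minus neonatal. In it 0 of 42 members and 0% of all genes passed, with 2511 genes and 0 members at an unadjusted p below 0.05, and DESeq2 called 174 genes, 0 of them members. The difference was positive for 33 of 42 members (78.6%, against 48.9% of all genes), with a median of 0.14 and a range of -0.14 to 0.35. The median was 0.07 without neonatal recipient 2 (26 positive) or adult control 7 (27 positive) and 0.09 without adult recipient 2 or neonatal control 8, and it reached 0.17 without adult control 6 (39 positive). The smallest adjusted p was that of Chaf1b, at 0.345 for a difference of 0.34 ± 0.17, with T cell effects of 0.19 ± 0.13 in adults and -0.15 ± 0.11 in neonates.

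The members tended to move together from library to library, by amounts similar to the group differences. Relative to each gene's mean over 15 libraries, the members averaged -0.14, 0.00, -0.16 and -0.03 on the log2 scale in adult recipients (numbers 1 to 4). The adult controls (5 to 7) averaged -0.11, -0.02 and -0.29. For neonatal recipients (1, 2, 4 and 5) the averages were 0.11, -0.08, 0.16 and 0.06, and for neonatal controls (6 to 9) 0.14, 0.07, 0.30 and -0.01. Adult control 7 was the lowest and neonatal control 8 the highest of all libraries.

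Neonatal control 8 held the highest neonatal value in 26 of 42 members, against 20.5% of all genes, and adult control 7 the lowest adult value in 29, against 16.7% of all genes. Neonatal recipient 2 held the lowest neonatal value in 27, against 11.8% of all genes. In neonatal control 8 the 22 mitosis genes were 0.46 above their mean, where the other neonatal libraries lay between 0.11 and 0.28. Its macrophage markers were 0.54 below their mean, where the other neonatal libraries lay 0.43 to 1.39 above it.

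**Figure D5:**
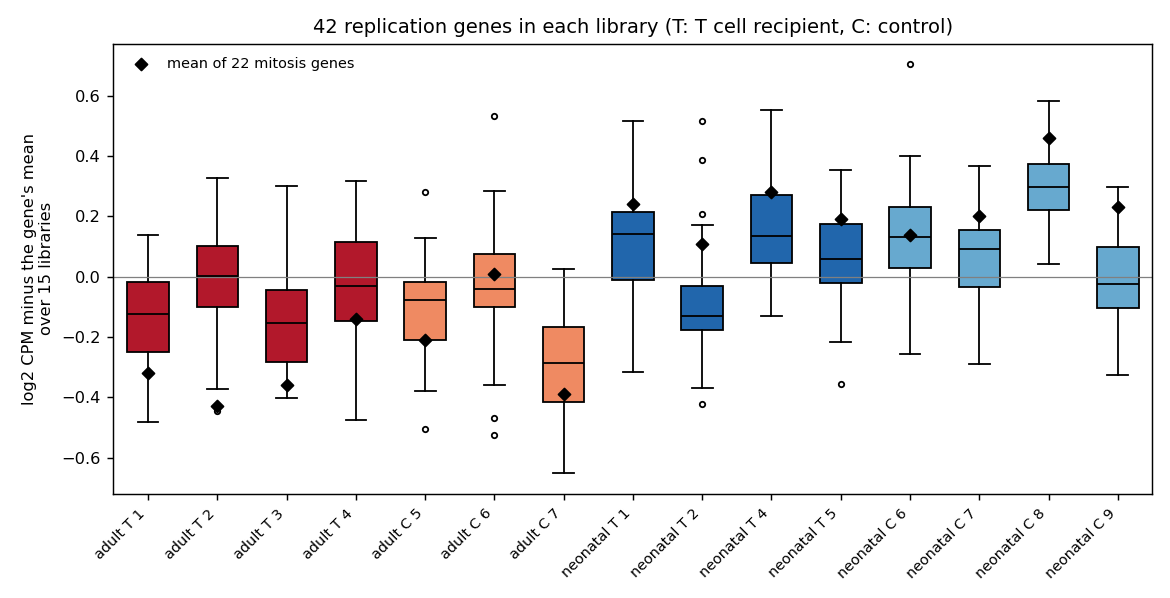
Deviation of log2 CPM from each gene's mean over 15 libraries, for the 42 members in each library (boxes: quartiles and median, whiskers to 1.5 times the box height, points beyond), with the mean of 22 mitosis genes as diamonds. Within each age the library averages of recipients and controls overlap in range, though not every pair of boxes does. Adult control 7 was lowest at -0.29 and neonatal control 8 highest at 0.30 on average.

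Transcript length moved with some of these comparisons and is given beside them. Over 15334 genes with a known length, Spearman's rho between log2 fold change and length was -0.05 for age in controls, -0.27 for age in recipients, -0.46 for T cells in adults and -0.03 for T cells in neonates, as a description across genes that share libraries. With that trend removed, 16 members were lower in adult controls, and in recipients 9 were lower and 2 higher. The 2 higher members were Mcm7 at 0.31 (adjusted p = 0.0134) and Rpa1 at 0.32 (adjusted p = 0.00108).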

How the data were processed

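Per the submitters' processing notes, bcl2fastq 2.20.0.422, cutadapt 2.5, STAR 2.7.2b, featureCounts 1.6.4 and DESeq2 1.24.0 were used with GRCm38.p6. The authors deposited 1 table of unscaled expected counts per gene, of which 61.1% of the non-zero values are whole, and the strand setting, the counted feature and the rule for fractions are not given in the sources used here.

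Counts were rounded and genes with low counts removed with filterByExpr (minimum count 10, total 15). TMM factors scaled the libraries. One edgeR 4.0.16 quasi-likelihood model (robust option, R 4.3.3) with a mean for each group took all 15 libraries and gave 5 two-sided contrasts. Benjamini-Hochberg adjustment ran over all 16437 genes, with a threshold of 0.05. Alternatives were DESeq2 1.42.0, limma voom 3.58.1, DESeq2 size factors, no filter, unrounded counts, compared groups only, a transcript length spline (5 degrees of freedom), a replicate block and leaving out each library. Lengths are the longest coding transcript per symbol in GENCODE M21. The steps were tested on simulated data.

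The members and all lists were chosen with earlier results of these data known. Values per library go to the 2 members per role with the smallest p between controls and the 3 with the smallest change there. Mcm7, Rpa2, Rpa3 and Fen1 fall under this rule but are given by fold change only in the age comparisons. Members named for the T cell comparisons, Orc1, Orc2, Cdt1, Mcm3, Mcm5, Mcm6, Pcna, Rrm2, Tk1, Chaf1a and the ratios were chosen after their values were seen. Of each pathway list 1 or 2 of the 4 genes with the smallest p are printed, and those going the other way in controls. Promoters are RefSeq's, on GRCm38.p6. Depth sets a floor of 3 counts, which covers counting error only. Replicates differed from one another by more than sampling noise.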

Additional observations from a re-analysis of the deposited data

Results flagged for a closer look

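In 7 of 126 groups of 4 libraries (42 members in 3 groups), 1 library lay apart from the other three by Dixon's criterion, which chance alone meets in about 1 in 20 groups. Neonatal control 8 held 2 of them: Rrm2 at 108 CPM, where the others lay between 71.5 and 73.1 CPM, and Gmnn at 40.8 CPM, against 28.9 to 30.2 CPM. Orc1 stood at 4.12 CPM in neonatal control 6, against 2.77 to 2.88 CPM. Gins1 stood at 7.64 CPM in neonatal recipient 2, against 9.64 to 9.92 CPM. In adult recipients, Pola1 was at 9.43 CPM and Tyms at 21.4 CPM in library 4, where the others held 10.1 to 10.2 CPM and 18.1 to 18.7 CPM. Rpa3 was at 13.5 CPM in adult recipient 2, against 9.75 to 10.3 CPM.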

How the results depend on the processing

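In adult against neonatal controls the count of members called was 12 to 18 when single libraries were left out and 13 to 17 otherwise, and 11 of the 17 (Mcm3, Mcm4, Mcm6, Mcm10, Prim2, Pola1, Lig1, Tyms, Rrm1, Chaf1b and Uhrf1) were called under all 23 alternatives. In recipients it was 9 to 17 without single libraries and 11 to 16 otherwise, and Mcm4, Prim2, Pola1, Tyms, Rrm1 and Uhrf1 kept their call throughout. Some of the 23 alternatives leave out a library outside the comparison, which acts only through the shared filter, scaling and spread. How many of all genes kept their call throughout was not counted. Without neonatal control 8, 12 members were lower and 5 higher in recipients. No member was called in the T cell comparisons or their difference under any alternative. Over all genes, T cells in adults gave 1406 calls, 2324 by DESeq2 (53.2% higher, against 41.3% by edgeR), 0 with the length trend removed and 0 to 1811 without single libraries. T cells in neonates gave 0 to 9 without single libraries, the difference 174 by DESeq2, and age in recipients a share of higher calls of 60.1% with the length trend removed, against 47%. Some uncalled values changed sign, with no call on either side. In controls Rpa1 was -0.001 with no count filter and -0.03 with the replicate block, Mcm2 0.01 with the block and 0.03 with the length trend removed, Mcm7 0.01 and Cdt1 0.0013 with that trend removed, and leaving out single libraries gave ranges of -0.04 to 0.15 for Rpa2, -0.03 to 0.05 for Rpa1, -0.09 to 0.06 for Mcm2, -0.11 to 0.05 for Mcm7 and -0.12 to 0.04 for Cdt1. In recipients Mcm5 was 0.0037 with DESeq2 size factors, 0.0039 by DESeq2, 0.09 with the length trend removed and 0.01 with the block, Chaf1a was 0.03 with the length trend removed, against -0.19, and the ranges were -0.13 to 0.0042 for Fen1, -0.06 to 0.04 for Mcm2 and -0.06 to 0.02 for Mcm5. The causes of these shifts were not tested. Between adult and neonatal libraries that share a number, deviations correlated at -0.07 to 0.31. So few pairs cannot settle whether a shared number means shared handling. With the numbers as a block, 12 members were lower and 1 higher in controls (3791 genes in all), and 10 lower and 4 higher in recipients (7608 genes in all). Recipients and controls of the same age share no number, so no such block was fitted for the T cell comparisons. Of the named members' values under the alternatives, 1446 kept direction and call, 61 lost the call, 39 gained one and 29 changed sign.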
